A study of Mus musculus with 10 samples.

Results

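The p53 target genes are a panel of 30 genes listed by symbol because each is known to be switched on by p53. Of these, 29 were measured and are described here, out of 19556 genes on the arrays, and FDXR was not analysed here. For each gene the probe sets that carry its symbol alone were considered, and the one of greatest mean signal across the 10 arrays was used. All 29 passed the filter on low signal that left 17170 genes for testing.

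p53 is a transcription factor that cells stabilise after DNA damage, oncogene activity or metabolic stress. It induces genes that stop the cell cycle, repair DNA, change metabolism or start cell death, and it also induces its own inhibitors, of which MDM2 is the central one. Many of these genes have other inputs as well, so their transcripts can move without p53. In estrogen receptor positive breast cancer cells, estrogen drives proliferation, and the arrest gene CDKN1A is known to be induced by antiestrogens as well as by p53.

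The measured cells were human breast cancer cells grown in female nu/nu mice aged 20 weeks, a strain that lacks a thymus and keeps other immune cells. All mice received an estrogen pellet. In the withdrawn groups (EWD) it was taken out for 1 week, and in the other groups (E) it stayed in place. Axillary lymph node metastases came from 3 mice with estrogen (mice 6, 11 and 14) and 3 mice of the withdrawn group (mice 9, 10 and 19). Tumors of the mammary gland, the primary site, came from mice 11 and 14 with estrogen and from mice 10 and 19 after withdrawal, so 4 of the 6 mice gave both sites. The labels do not name the cell line. They give the host mouse as the organism, while the arrays carry human probe sets. Cells were cut from frozen sections by laser capture and their RNA was amplified by PCR, so each array is a bulk sample in which fewer cells of a type and less RNA per cell cannot be told apart.

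Values are log2 signal, and differences are log2 differences with the standard error (SE) of the limma fit. The estrogen-treated primary tumor arrays had a compressed range: their 99th percentiles were 9.44 and 10.04, against 11.39 to 11.67 on the other 8 arrays, while the array medians lay between 2.70 and 2.83. Every comparison was therefore also made after quantile normalization, which gives all arrays 1 distribution. A second split lay in the 18 control probe sets for hybridization, whose mean was 9.47 to 10.59 on 6 arrays and 12.04 to 12.47 on lymph nodes 11 (E) and 19 (EWD) and both primary tumors of the EWD group. In primary tumors both technical splits coincided with the pellet state, so they and estrogen cannot be told apart there. Among the estrogen arrays the compressed range coincided with the primary site, so it and site cannot be told apart there either. The mean of 7 of 7 listed epithelial markers lay between 9.21 and 10.59 on the lymph node and withdrawn primary tumor arrays, and at 8.15 and 8.37 on the estrogen-treated primary tumors. After quantile normalization it was 9.24 and 9.35 on the latter. On those data it was 9.21 to 9.95 in estrogen-treated lymph nodes and 10.13 to 10.23 in the withdrawn groups. The list means of leukocyte markers (10 of 12 measured, 2.70 to 3.32) and stromal markers (12 of 12, 2.90 to 3.30) lay near the array medians on every array. The probe sets are human and the host cells are mouse, so low signal here cannot show that host leukocytes or stroma were few. Single markers lay above the array medians, with 6.33 to 7.54 for the collagen gene COL1A1. Group means were 2.69 to 4.92 for COL3A1 and 4.26 to 5.70 for the B cell gene CD79A. The source of these signals and the part of such cells in the results were not tested.

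The members' mean signal over the 10 arrays ran from 2.77 for SPATA18, which takes part in mitochondrial quality control, to 10.51 for PERP, a membrane protein of desmosomes that p53 induces in cell death. Signal also depends on the probes, so these means do not rank the transcripts by abundance. The most variable member was PLK2, a stress-responsive polo-like kinase, whose signal ran from 3.56 to 7.60. The least variable was EDA2R, a receptor of the TNF receptor family, which ran from 2.83 to 3.40. MDM2, the ubiquitin ligase that degrades p53, was near the low end of the range on every array. Its signal was 3.46, 3.60 and 3.15 in estrogen-treated lymph nodes, 3.30, 3.41 and 3.29 in withdrawn lymph nodes, 3.02 and 4.0 in estrogen-treated primary tumors, and 3.03 and 2.90 in withdrawn ones. The groups of each estrogen comparison overlapped, and MDM2 was not called in any of the 5 comparisons, as deposited or after quantile normalization.

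**Figure D1:**
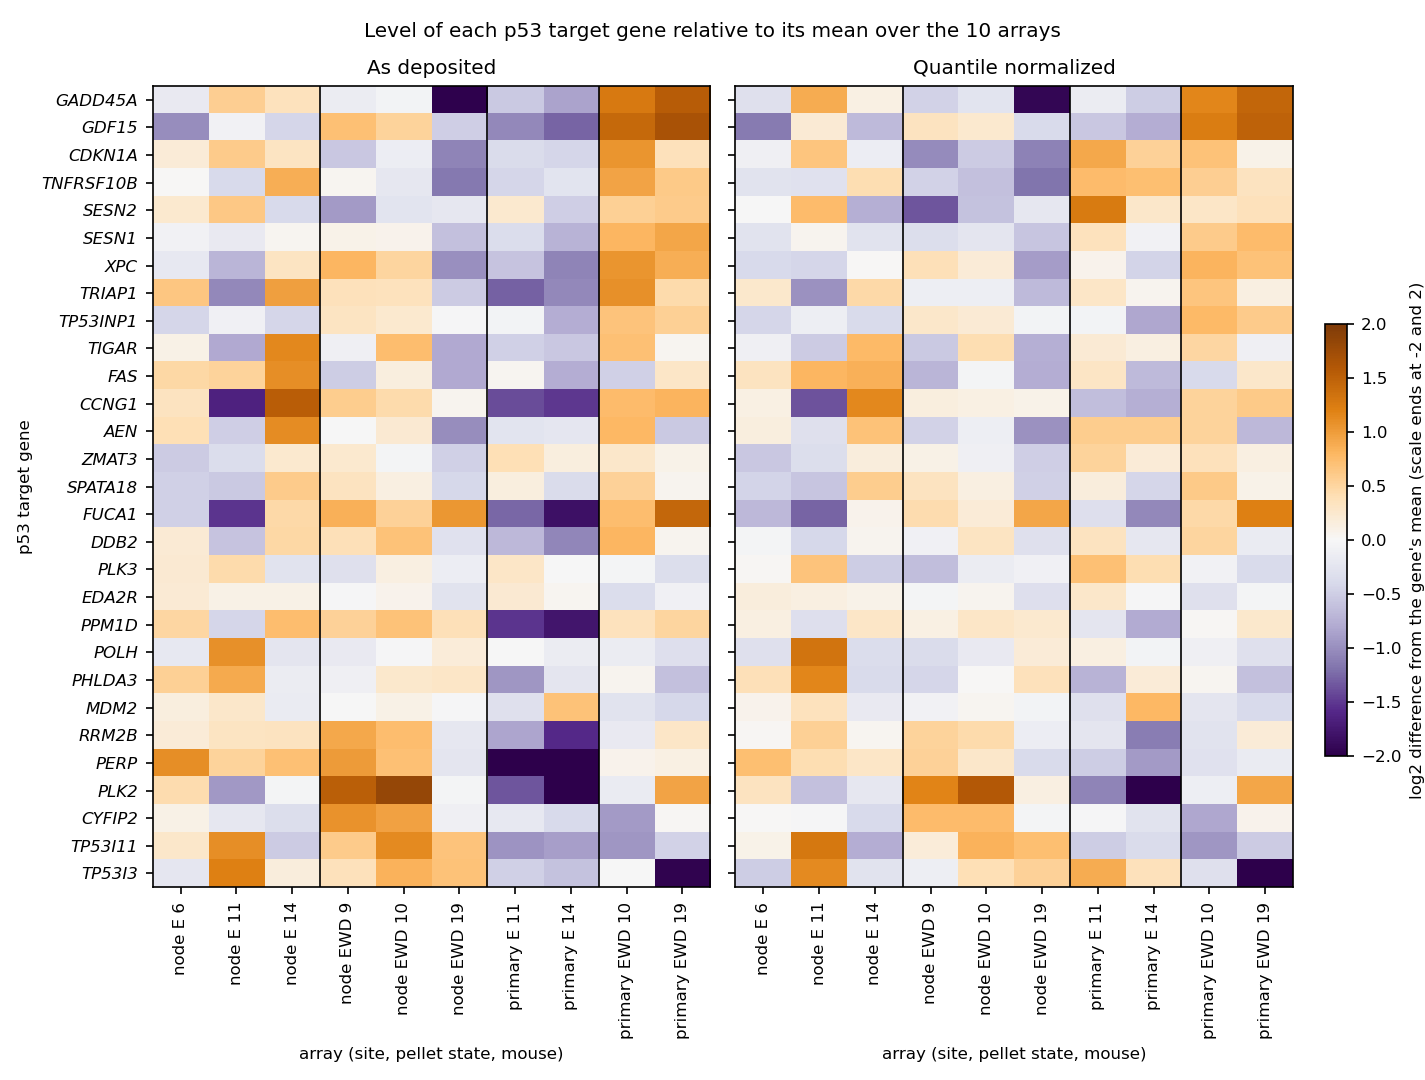
Each row is 1 of the 29 p53 target genes and each column 1 array, as deposited (left) and after quantile normalization (right), with color giving the log2 difference from the gene's mean over the 10 arrays. As deposited, many members are low on both estrogen-treated primary tumor arrays, and after quantile normalization fewer are.

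In lymph node metastases, no member passed the threshold between estrogen and withdrawal. CDKN1A and the death receptor gene FAS were higher on all 3 estrogen arrays than on all 3 withdrawn arrays, and FUCA1, which encodes a lysosomal fucosidase, was lower on all 3. None of the 17170 genes passed an adjusted p of 0.05 (0% called), and 1002 genes (5.84%) had an unadjusted p below 0.05, among them 4 of the 29 members. The median difference of the members was 0.07, against −0.02 over all genes tested.

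CDKN1A encodes p21, the inhibitor of cyclin-dependent kinases through which p53 halts the cell cycle. Its signal was 8.88, 9.30 and 9.01 with estrogen and 8.13, 8.56 and 7.62 after withdrawal. The groups did not overlap, and the difference was 0.96 ± 0.29 (SE, n = 3 and 3, limma with Benjamini-Hochberg adjustment, adjusted p = 0.594). FAS, which triggers apoptosis when its ligand binds, had 5.23, 5.28 and 5.85 with estrogen and 4.24, 4.90 and 3.94 after withdrawal. Its difference was 1.10 ± 0.35 (limma adjusted p = 0.639), with the same sign in 4 of its 5 probe sets. Among arrays of low hybridization controls (2 against 2) the difference was 0.60 for CDKN1A and 0.97 for FAS. In the pair of arrays with high controls it was 1.67 and 1.34. As the groups of both genes did not overlap, the sign within each side was fixed and adds no support.

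FUCA1 had 8.20, 7.15 and 9.12 with estrogen and 9.51, 9.20 and 9.70 after withdrawal, a difference of −1.32 ± 0.46 (limma adjusted p = 0.731) that was −0.81 without estrogen mouse 11. PLK2 had 6.20, 4.84 and 5.73 with estrogen and 7.30, 7.60 and 5.74 after withdrawal, a difference of −1.29 ± 0.56 (limma adjusted p = 0.854). The PLK2 groups overlapped by the withdrawn array of mouse 19. The growth arrest gene GADD45A, induced by DNA damage, had 5.48, 6.23 and 6.00 with estrogen and 5.51, 5.61 and 3.68 after withdrawal. Its difference of 0.97 (limma adjusted p = 0.901) rested on mouse 19 of the withdrawn group and was 0.35 without that array. Without overlap, 3 members were higher with estrogen (CDKN1A, FAS and EDA2R), where 4.47% of all genes were. Another 2 were lower (FUCA1 and TP53INP1), where 5.46% of all genes were. After quantile normalization 4 members were higher without overlap, TNFRSF10B being added, and 2 were lower, against 5.47% and 5.63% of all genes.

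Among the other members in lymph nodes, the widest differences were −0.79 for CYFIP2, a regulator of actin, −0.75 for GDF15, a secreted stress factor, 0.62 for SESN2 and 0.60 for TNFRSF10B and for AEN, a nuclease of apoptosis. SESN1, a stress-induced inhibitor of mTORC1 signalling, had 6.98, 6.87 and 7.09 with estrogen and 7.14, 7.12 and 6.43 after withdrawal. RRM2B, the ribonucleotide reductase subunit that supplies nucleotides for repair, had 7.09, 7.21 and 7.24 against 7.81, 7.63 and 6.69. In both genes the withdrawn arrays spread around the estrogen arrays. The differences of the repair genes XPC, DDB2 and POLH lay between −0.30 and 0.22, and that of PPM1D, the phosphatase that switches damage signalling off, was −0.27.

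**Figure D2:**
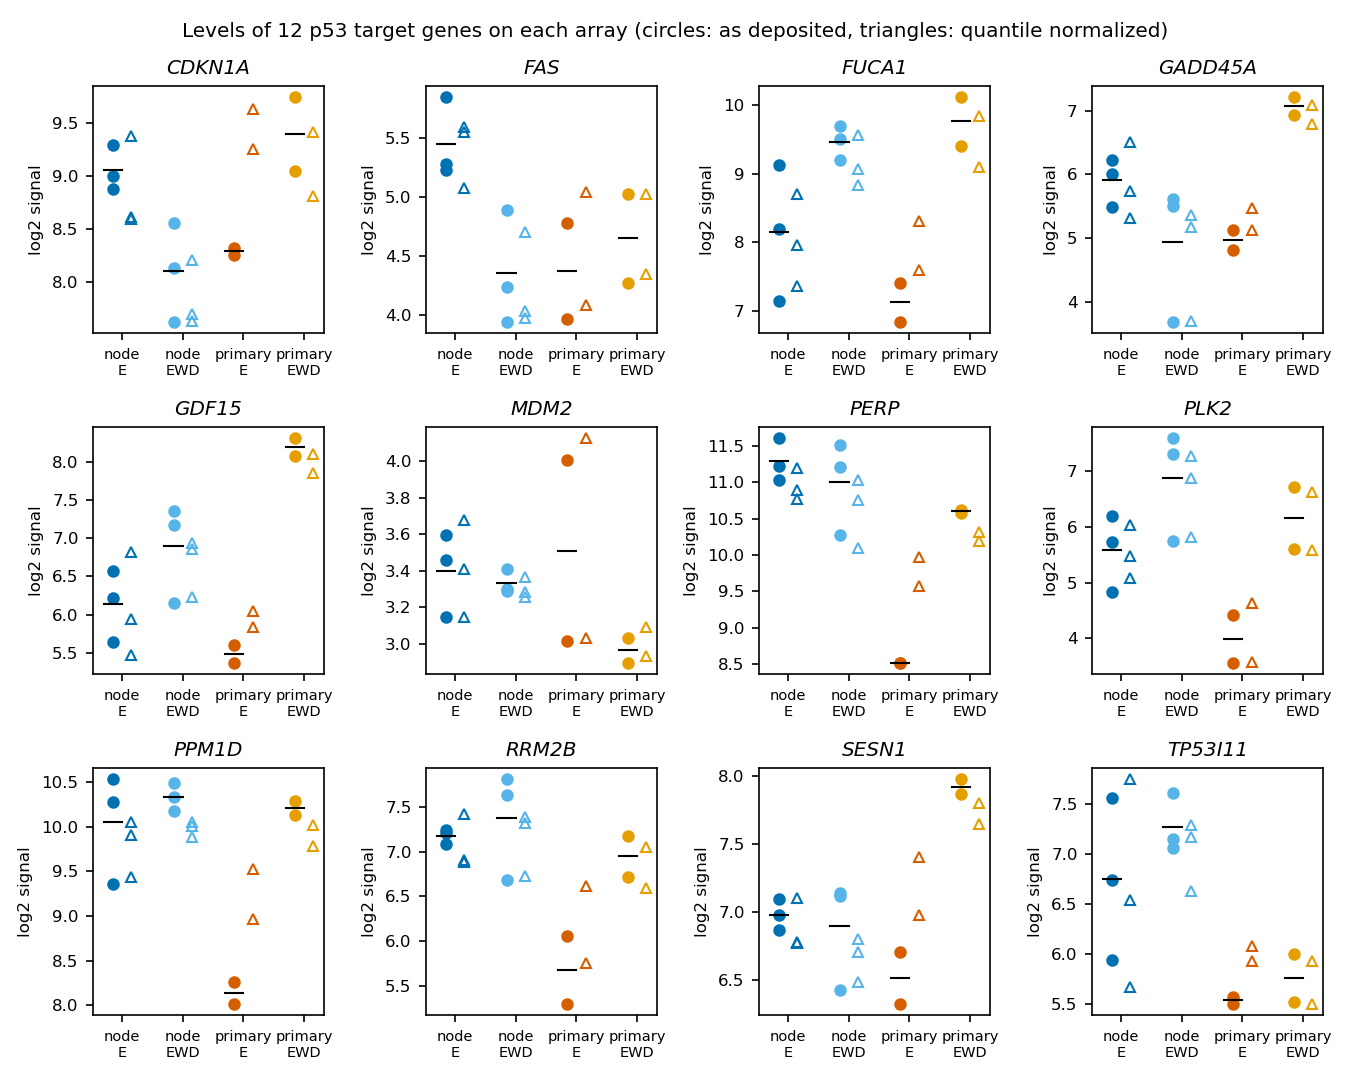
Log2 signal of 12 p53 target genes on each array, by site and pellet state (E, estrogen; EWD, withdrawn), with circles for values as deposited, triangles for quantile normalized values and bars for the mean as deposited. CDKN1A is higher with estrogen than without it in lymph nodes and lower with estrogen in primary tumors as deposited, while GDF15 and FUCA1 are lower with estrogen in primary tumors on both scales.

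In primary tumors, 5 of the 29 members were lower with estrogen than after withdrawal as deposited, and none was higher. They were the secreted stress factor GDF15, the phosphatase gene PPM1D, PERP, SESN1 and FUCA1, with differences from −1.40 to −2.69. This was 17.2% of the members, beside 7.82% of all genes (1342 genes) called in either direction, 6.94% called lower and 0.879% called higher. Leaving out any 1 of the 4 primary tumor arrays ended all 5 calls, and after quantile normalization no member was called, where 1.34% of all genes (230 genes) were. The calls also moved with the lymph node arrays, which enter the fit through the shared spread and the mouse block. Without the lymph node of estrogen mouse 11, 12 members were called, beside 20.8% of all genes. Without that of withdrawn mouse 19, 9 members were, beside 8.85%. Without that of estrogen mouse 6 or withdrawn mouse 10, 3 members were, beside 4.14% and 3.03% of all genes. All genes called split into 151 higher and 1191 lower as deposited, and into 130 higher and 100 lower after quantile normalization.

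GDF15, a hormone of the TGF-β superfamily that stressed cells secrete, had 5.60 and 5.37 with estrogen and 8.07 and 8.31 after withdrawal. Its difference was −2.69 ± 0.44 (SE, n = 2 and 2, limma adjusted p = 0.0154), with 4 of 5 probe sets of the same sign. After quantile normalization its groups stayed apart, at 6.05 and 5.84 against 7.85 and 8.10, with a difference of −2.01 ± 0.43 (limma adjusted p = 0.0599). In lymph nodes GDF15 had 5.64, 6.57 and 6.22 with estrogen and 7.36, 7.17 and 6.15 after withdrawal, where the groups overlapped.

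FUCA1 had 7.41 and 6.84 with estrogen and 9.41 and 10.12 after withdrawal in primary tumors, a difference of −2.64 ± 0.57 (limma adjusted p = 0.0297). Its other probe set, of mean signal 2.65 and so near the array medians, differed by only −0.05. After quantile normalization the difference was −1.53 ± 0.48 (limma adjusted p = 0.126) and the groups still did not overlap. FUCA1 and TP53INP1, which promotes autophagy and cell death, were the 2 members lower with estrogen without overlap in both sites, a pattern of 3.53% of all genes. TP53INP1 signal was near the array medians, at 2.12 to 3.58. Its other probe sets differed by −0.16 and −0.01 in lymph nodes and by −0.12 and −0.065 in primary tumors.

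PERP had 8.52 on both estrogen-treated arrays and 10.58 and 10.62 after withdrawal, a difference of −2.08 ± 0.39 (limma adjusted p = 0.0216). Of its 8 probe sets 5 had this sign. The one of mean signal 10.02 differed by −1.75, and the one of mean signal 6.55 by 0.58, the opposite way. PPM1D had 8.26 and 8.02 with estrogen and 10.13 and 10.29 after withdrawal, a difference of −2.07 ± 0.37 (limma adjusted p = 0.0183). SESN1 had 6.70 and 6.33 with estrogen and 7.86 and 7.97 after withdrawal, a difference of −1.40 ± 0.29 (limma adjusted p = 0.0277). In each of these genes the estrogen arrays lay below the withdrawn arrays on both scales, but after quantile normalization the differences shrank to −0.48 for PERP, −0.66 for PPM1D and −0.53 for SESN1 (limma adjusted p = 0.427, 0.228 and 0.266).

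Other members missed the threshold with sizeable differences as deposited. GADD45A had 5.12 and 4.81 with estrogen and 6.93 and 7.21 after withdrawal, a difference of −2.09 ± 0.59 (limma adjusted p = 0.0651). PLK2 had 4.43 and 3.56 with estrogen and 5.61 and 6.72 after withdrawal, a difference of −2.18 ± 0.69 (limma adjusted p = 0.0876). RRM2B had 6.06 and 5.30 with estrogen and 6.72 and 7.18 after withdrawal, and CDKN1A had 8.32 and 8.26 with estrogen and 9.75 and 9.05 after withdrawal. The CDKN1A difference was −1.10 ± 0.36 (limma adjusted p = 0.0946) as deposited and 0.34 ± 0.37 after quantile normalization, when its groups overlapped. Its direction in primary tumors therefore depended on the scaling, and its 2 probe sets gave opposite signs as deposited.

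The damage recognition gene XPC (−1.76), the apoptosis inhibitor gene TRIAP1 (−1.93) and CCNG1, which encodes cyclin G1 and links MDM2 to a phosphatase (−2.24), also had lower means with estrogen, with limma adjusted p of 0.0925, 0.0953 and 0.123. FAS had 4.78 and 3.97 with estrogen and 4.27 and 5.03 after withdrawal, and its groups overlapped. In all, 22 of 29 members had a negative difference, beside 55.9% of all genes, and 17 were lower without overlap, beside 38.3%. The median of the members was −1.03, against −0.10 over all genes tested. After quantile normalization 16 members were negative, 10 were lower without overlap (26.8% of all genes) and 7 were higher without overlap (31.1%), and the median was −0.11.

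**Figure D3:**
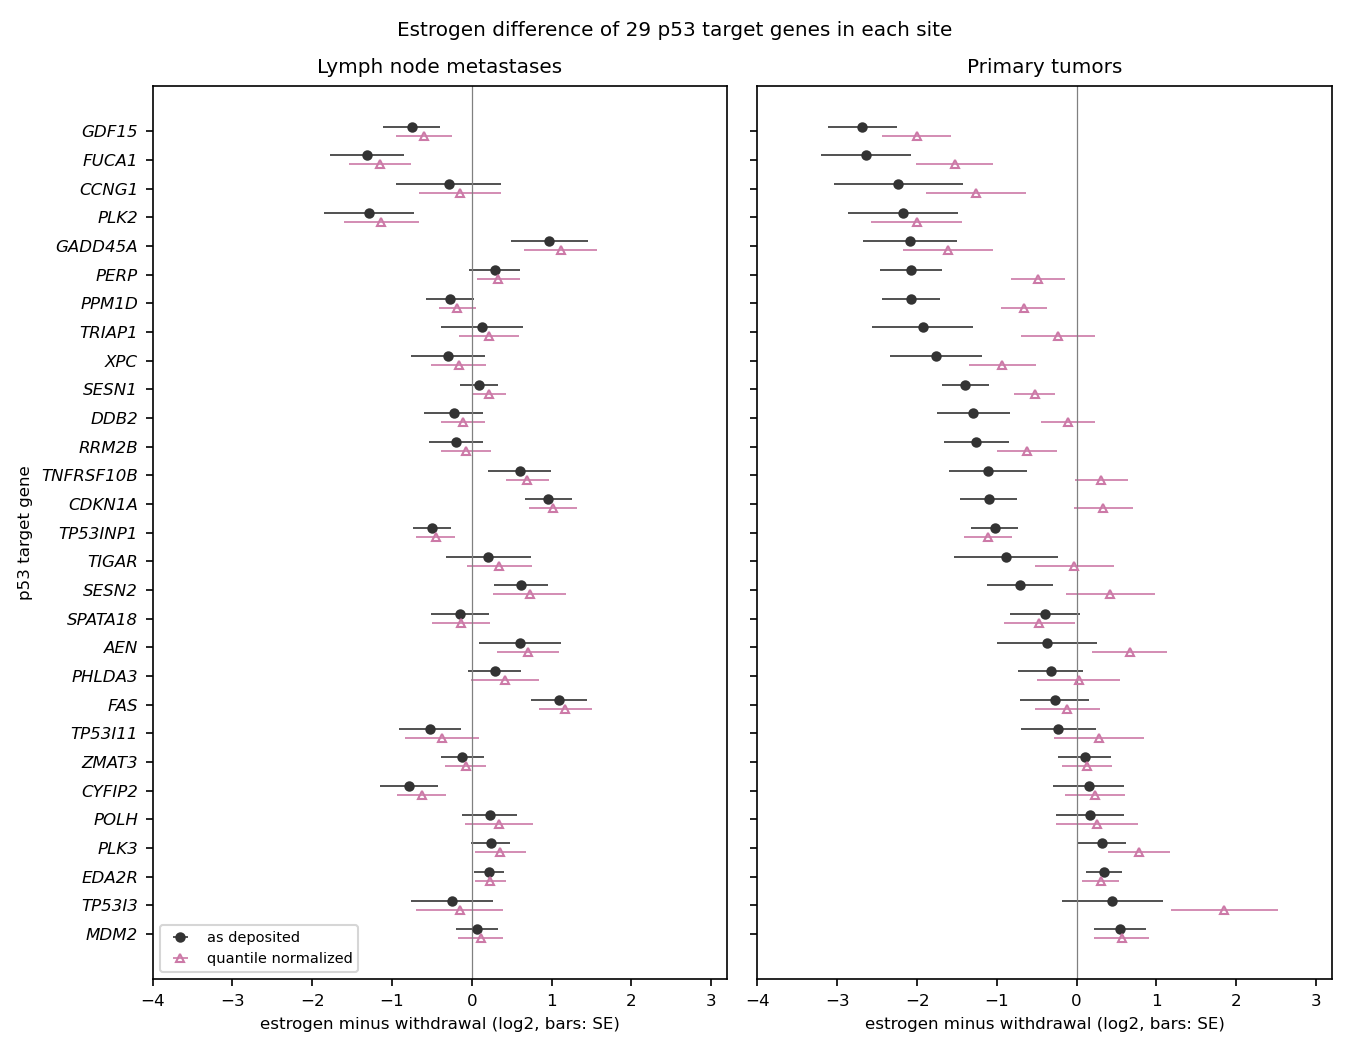
Estrogen minus withdrawal for each of the 29 p53 target genes (log2, bars are the SE of the limma fit) in lymph nodes and in primary tumors, with filled symbols for values as deposited and open symbols for quantile normalized values. In lymph nodes the 2 scales lie close together, and in primary tumors most members shift toward 0 or above it after quantile normalization.

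The estrogen difference in primary tumors ran with signal level across all genes as deposited. Its median was 0.11 for genes with a mean below 4, −0.12 from 4 to 6, −0.77 from 6 to 8, −1.31 from 8 to 10, and −1.90 at 10 and above. This description by level was chosen after the values had been seen. Beside genes of like level, PERP (−2.08), TRIAP1 (−1.93) and DDB2 (−1.30), which senses ultraviolet damage, lay close to the median of their level. CDKN1A lay 0.21 above it. PPM1D lay 0.76 below its level's median, at the 23.5th percentile, and SESN1 lay 0.63 below, at the 30.9th percentile. The members below the 10th percentile of their level were GDF15 (1.92 below the median), FUCA1 (1.33 below), GADD45A (1.97 below), PLK2 (2.06 below) and TP53INP1 (1.14 below). TP53I3, a quinone oxidoreductase gene, lay 1.76 above its level's median, at the 94.7th percentile. Its signal was 8.43 and 8.32 with estrogen and 8.91 and 6.96 after withdrawal, so its groups overlapped as deposited.

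**Figure D4:**
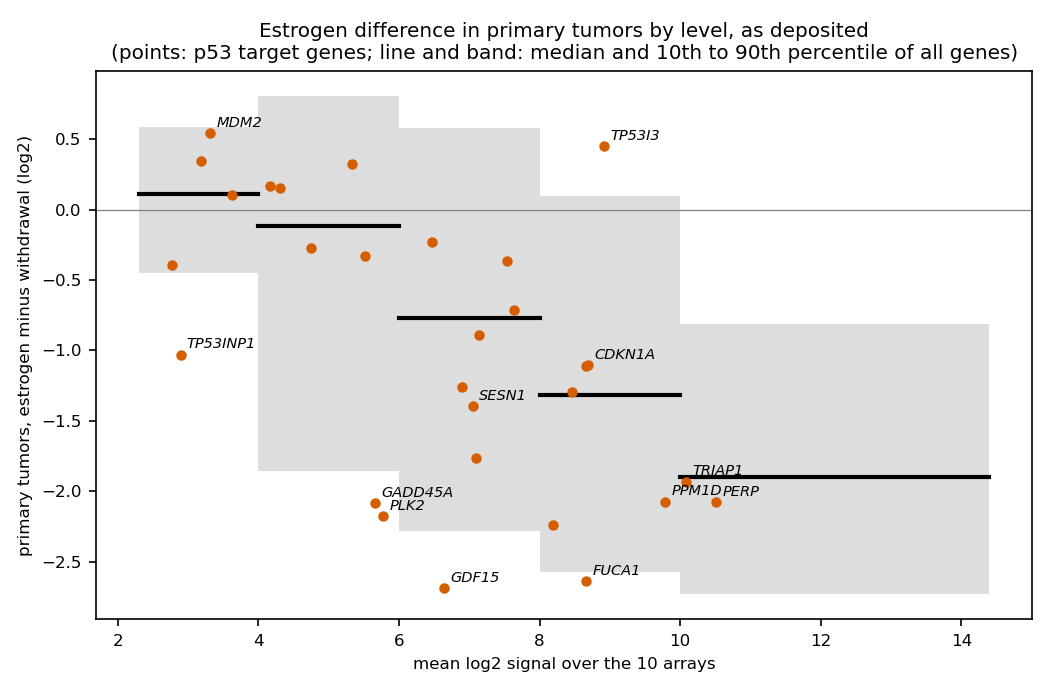
Estrogen minus withdrawal in primary tumors as deposited (log2) against the mean log2 signal over the 10 arrays, with a point for each p53 target gene and, for all 17170 genes tested, the median (line) and the 10th to 90th percentile (band) in 5 ranges of signal. The median of all genes falls from 0.11 to −1.90 along the axis, and GDF15, GADD45A, PLK2, FUCA1 and TP53INP1 lie below the band.

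With estrogen present, 3 members were higher in lymph node metastases than in primary tumors as deposited, namely PERP, PPM1D and RRM2B. This was 10.3% of the members, beside 8.76% of all genes (1504 genes) called in either direction and 7.81% called higher. PERP had 11.61, 11.04 and 11.22 in lymph nodes against 8.52 and 8.52 in primary tumors, a difference of 2.77 ± 0.36 (limma adjusted p = 0.00679). Within the same animal the site difference was 2.52 in mouse 11 and 2.70 in mouse 14, the latter between arrays of low hybridization controls. The other members called had smaller site differences. As deposited the site difference with estrogen also rose with signal level across all genes, a description chosen after the values had been seen. Its median was −0.03 for genes with a mean below 4, 0.37 from 4 to 6 and 0.79 from 6 to 8. From 8 to 10 it was 1.29, and at 10 and above 1.88. PERP lay 0.90 above the median of its level, PPM1D 0.63 and RRM2B 0.70, at the 98.8th, 87.5th and 85.5th percentiles.

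PPM1D had 10.28, 9.36 and 10.53 in lymph nodes against 8.26 and 8.02, a difference of 1.92 ± 0.34 (limma adjusted p = 0.0128), and 1.10 and 2.51 within mice 11 and 14. RRM2B had 7.09, 7.21 and 7.24 against 6.06 and 5.30, a difference of 1.49 ± 0.38 (limma adjusted p = 0.0447), and 1.15 and 1.93 within these mice. None of the lymph node arrays overlapped the primary tumors in these 3 genes as deposited. The shared sign of both mice was therefore fixed on that scale and adds no support. After quantile normalization the differences within mice 11 and 14 were 0.93 and 1.20 for PERP and 0.80 and 1.16 for RRM2B. For PPM1D they were −0.09 and 1.08, of opposite sign. The second PPM1D probe set, of mean signal 6.20, differed by only 0.04 between the sites with estrogen. After quantile normalization no member was called (0.46% of all genes were), with differences of 1.19 for PERP, 0.55 for PPM1D and 0.88 for RRM2B (limma adjusted p = 0.163, 0.452 and 0.362). With mouse as a fixed block, or with the estrogen arrays alone in the fit, no gene and no member was called. PERP was called without any 1 array in turn (limma adjusted p = 0.00323 to 0.0483). Without estrogen lymph node 11, 6 members were called, beside 22.4% of all genes (3850 genes). Without estrogen lymph node 6, PERP alone was, beside 2.29% of all genes. RRM2B kept its call only without estrogen lymph node 11 or withdrawn lymph node 19 and lost it without any 1 of the other 8 arrays (limma adjusted p up to 0.27).

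The remaining members mostly leaned the same way as deposited: 25 of 29 had a positive difference, beside 32.4% of all genes with a negative one, and the median was 0.67 against 0.26 over all genes tested. Without overlap, 13 members were higher in lymph nodes, where 28% of all genes were. TP53I11 had 6.74, 7.56 and 5.94 on the lymph node arrays against 5.51 and 5.58 on those of primary tumors, a difference of 1.21 ± 0.44 (limma adjusted p = 0.138). PLK2 differed by 1.61 ± 0.64 and FAS by 1.07 ± 0.40 (limma adjusted p = 0.175 and 0.148). After quantile normalization the members split 15 positive to 14 negative with a median of 0.0047, and 4 were higher without overlap beside 13.6% of all genes.

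After estrogen withdrawal, several arrest and stress genes of the panel had lower signal on every lymph node array than on both primary tumor arrays, but no member passed the threshold. No gene of 17170 was called (0%), while 1723 genes (10%) had an unadjusted p below 0.05 in limma, among them 9 members. Lower in lymph nodes without overlap were 10 of the 29 members (34.5%), beside 10.2% of all genes: CDKN1A, GADD45A, GDF15, SESN1, SESN2, TNFRSF10B, XPC, CCNG1, TRIAP1 and TP53INP1. After quantile normalization 11 were (37.9%), beside 13.8%. This comparison shares the withdrawn primary tumor arrays with the estrogen comparison in primary tumors, so the values of the 2 comparisons are not independent.

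GADD45A had 5.51, 5.61 and 3.68 in withdrawn lymph nodes against 6.93 and 7.21 in primary tumors of that state, a difference of −2.13 ± 0.55 (limma adjusted p = 0.258). CDKN1A had 8.13, 8.56 and 7.62 against 9.75 and 9.05, a difference of −1.29 ± 0.33 (limma adjusted p = 0.258). The second CDKN1A probe set, of mean signal 4.17, differed by only −0.04. SESN1 had 7.14, 7.12 and 6.43 against 7.86 and 7.97, a difference of −1.02 ± 0.27 (limma adjusted p = 0.273). In each gene every primary tumor array lay above every lymph node array. GDF15 differed by −1.29 ± 0.41 (limma adjusted p = 0.336), and the TRAIL receptor gene TNFRSF10B by −1.21 ± 0.45 (limma adjusted p = 0.42).

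These differences hardly moved with quantile normalization, at −2.18 for GADD45A, −1.27 for CDKN1A, −1.06 for SESN1, −1.29 for GDF15 and −1.19 for TNFRSF10B. Within the same animal, the CDKN1A site difference was −1.19 in mouse 10 and −1.42 in mouse 19, whose arrays both had high hybridization controls. For GADD45A it was −1.32 and −3.52, for GDF15 −0.91 and −2.16, and for SESN1 −0.74 and −1.54. In these 4 genes every withdrawn primary tumor array lay above every withdrawn lymph node array. The shared sign of both mice was therefore fixed and adds no support.

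In the other direction, 3 members were higher in withdrawn lymph nodes without overlap, beside 20.8% of all genes: TP53I11, TP53I3 and MDM2. TP53I11 had 7.06, 7.60 and 7.15 against 5.52 and 6.01, a difference of 1.5 ± 0.44 (limma adjusted p = 0.303). TP53I3 had 9.27, 9.74 and 9.60 against 8.91 and 6.96, so the gap to the higher primary tumor array was far smaller than the mean difference of 1.60. The median of the members was −0.27, against 0.07 over all genes tested, and −0.34 after quantile normalization, against 0.01.

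The estrogen responses of the 2 sites were compared directly by the interaction, the lymph node difference minus the primary tumor difference. No member passed the threshold, and 2 of 17170 genes (0.0116%) did as deposited and 1 (0.00582%) after quantile normalization. At an unadjusted p below 0.05 there were 1862 genes (10.8%) and 10 members. CDKN1A was the 1 member higher with estrogen in lymph nodes and lower with estrogen in primary tumors without overlap in either, a pattern of 0.606% of all genes, and after quantile normalization no member showed it (0.291% of all genes did). Its interaction was 2.06 ± 0.47 (95% interval 0.98 to 3.14, limma adjusted p = 0.163) as deposited and 0.68 ± 0.49 after quantile normalization. The second CDKN1A probe set, of mean signal 4.17, gave an interaction of −0.59 as deposited, the opposite way.

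GADD45A had the greatest interaction of the members as deposited, 3.06 ± 0.78 (limma adjusted p = 0.183). It was 2.73 ± 0.74 after quantile normalization (limma adjusted p = 0.598). PERP differed by 2.37 ± 0.51 and PPM1D by 1.80 ± 0.48 (limma adjusted p = 0.163 and 0.2), and these became 0.82 and 0.48 after quantile normalization. The second PPM1D probe set gave an interaction of 0.13 as deposited. SESN1 differed by 1.48 ± 0.38 and GDF15 by 1.93 ± 0.57 (limma adjusted p = 0.192 and 0.243). Without estrogen lymph node 11, 6 members passed the threshold as deposited (CCNG1, CDKN1A, PERP, PPM1D, SESN1 and TRIAP1), beside 1543 genes in all (8.99%). After quantile normalization without that array, 0 members did, beside 38 genes (0.221%).

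Further genes of the pathway were read from lists of p53 regulators, additional p53 targets, and cell cycle genes that p53 represses through p21. Of 43 additional targets tested, 3 were lower with estrogen in primary tumors as deposited, beside 6.94% of all genes, and none was higher. They were IER5, an immediate early response gene (−2.59 ± 0.42, limma adjusted p = 0.0147), the ribosomal protein gene RPS27L (−2.41 ± 0.44, adjusted p = 0.0204) and the hydrolase gene CMBL (−1.67 ± 0.41, adjusted p = 0.0449). Group means were 8.24 to 10.82 for IER5, 10.00 to 12.41 for RPS27L and 10.15 to 12.18 for CMBL. For genes of mean signal 10 and above the median difference was −1.90 and the 10th to 90th percentile −2.73 to −0.81. All 3 genes, whose means over the 10 arrays were above 10, lay within that range. The same list gave 5 genes higher in lymph nodes than in primary tumors with estrogen, beside 7.81% of all genes, among them PTP4A1, a tyrosine phosphatase (2.31 ± 0.46, limma adjusted p = 0.0191). In lymph nodes none of the 43 was called for estrogen. The strongest there was DRAM1, a lysosomal membrane protein gene of autophagy, with 4.69 ± 0.89 (SD, n = 3) with estrogen and 7.43 ± 0.84 after withdrawal, a difference of −2.73 ± 0.56 (SE, limma adjusted p = 0.277). DRAM1 also had a negative difference in primary tumors, −2.41 ± 0.69 (limma adjusted p = 0.0674).

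Of 23 regulators tested, 2 were lower with estrogen in primary tumors as deposited, beside 6.94% of all genes: RPL5, a ribosomal protein that inhibits MDM2 (−2.25 ± 0.33, limma adjusted p = 0.0127), and the damage kinase gene ATR (−3.70 ± 0.90, adjusted p = 0.0418). RPL5, with group means of 10.75 to 13.03, also lay within the 10th to 90th percentile of genes of mean signal 10 and above (−2.73 to −0.81). With estrogen, RPL5, RPL11 and the corepressor gene TRIM28 were higher in lymph nodes than in primary tumors, beside 7.81% of all genes. Group means were 13.03 and 10.75 for RPL5, 14.14 and 12.79 for RPL11, and 6.26 and 3.87 for TRIM28. RPL5 and RPL11 lay within the 10th to 90th percentile of this site difference for genes of mean signal 10 and above (1.24 to 2.36). CDKN2A, which encodes the MDM2 inhibitor ARF, was lower in lymph nodes with estrogen, beside 0.949% of all genes. The CDKN2A signal was near the array medians, at 2.56 ± 0.10 (SD, n = 3) and 3.48 ± 0.14 (n = 2). Of 15 cell cycle genes repressed through p21, none was called for estrogen in either site. With estrogen, 3 of the 15 were higher in lymph nodes than in primary tumors, beside 7.81% of all genes. CCNB1, CCNB2 and CDC20, which drive mitosis, differed by 2.51 ± 0.44, 2.12 ± 0.48 and 2.63 ± 0.63 (limma adjusted p = 0.0128, 0.0304 and 0.0379). After quantile normalization no gene of these 3 lists was called in any of the 5 comparisons.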

How the data were processed

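The deposited values are log2 signal of 61359 probe sets on each array. Partek and RMA (background correction, normalization and probe summary) are the tools that the submitters' processing notes list, without versions. Signal of PCR-amplified captured RNA can favor 3′ ends and carries amplification noise. Precision is limited by the number of arrays, which give no counts. Per the platform annotation, which can be old, 44532 probe sets had 1 symbol, 1492 several, 62 were controls and 15273 were unnamed here. Each of 19556 genes was read from the 1-symbol probe set with the highest mean. A mean below the 25th percentile of probe set means (2.31) removed 2386 genes.

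Differences were tested with lmFit and eBayes of limma 3.58.1 (R 4.3.3) on 17170 genes, with 1 mean per group, all 10 arrays, and mouse as a random block (consensus correlation −0.0415, and −0.0566 after quantile normalization). Fitted differences can depart slightly from differences of means. Genes were called at a Benjamini-Hochberg adjusted p below 0.05 over all genes tested, in each of 5 comparisons. The labels' mouse numbers pair arrays of 1 animal, and the correlation of their deviations from the group means was 0.176, −0.208, −0.21 and 0.0831 in mice 10, 11, 14 and 19. The fit was tested on simulated data. Members and lists were chosen with earlier results of these data known. Members given with every array were CDKN1A, MDM2, any member called, and the 4 of greatest moderated t in each comparison. Genes of other lists were named if called or among the 3 of greatest moderated t. Alternatives were quantile normalization, the mean of all probe sets of a gene, no filter, no block, a fixed block, a variance trend, fits with the compared groups alone and leaving out each array. Leaving out arrays after quantile normalization was added after the values had been seen. Where 1 array of a primary tumor group remained, it was assumed to vary like the other groups.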

Additional observations from a re-analysis of the deposited data

How the results depend on the processing

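Without the mouse block, or without the filter, the same members were called as reported. Quantile normalization took the genes called to 230 for estrogen in primary tumors, 79 for site with estrogen and 1 for the difference of responses, with 0 members called in the first 2 of these, and took the members' medians to −0.11, 0.0047 and 0.39. The mean over all probe sets of a gene gave 682 genes and 1 member (SESN1) for estrogen in primary tumors with a members' median of −0.42, 834 genes and 1 member (PERP) for site with estrogen, 2 genes for estrogen in lymph nodes, 1 for site after withdrawal and 1 for the difference of responses. Fits of the compared groups alone gave 3685 genes and 12 members for estrogen in primary tumors, and 0 genes and 0 members for site with estrogen. With mouse as a fixed replicate block, 0 genes and 0 members were called for site with estrogen and 0 genes for the difference of responses. A variance trend ended the SESN1 call for estrogen in primary tumors, where TP53INP1 was called instead, and the RRM2B call for site with estrogen, and it gave 3 genes for site after withdrawal and 0 for the difference of responses, and no filter gave 4 for the latter. Leaving out 1 array at a time moved the genes called for estrogen in primary tumors between 5 and 3564 and the members between 0 and 12, and for site with estrogen between 181 and 3850 and between 1 and 6. For the difference of responses it moved them between 0 and 1543 and between 0 and 6, for estrogen in lymph nodes between 0 and 9 genes, and for site after withdrawal between 0 and 42 genes, with 0 members in both. After quantile normalization, leaving out estrogen lymph node 11 gave 4 members for estrogen in primary tumors (CCNG1, FUCA1, GDF15 and TP53INP1). Beside them, 11% of all genes (1890 genes) were called. Leaving out any other lymph node array gave 0 members. For the 12 members given with every array, 57 called values lost their call under these alternatives, 13 values gained one and no called value reversed. Other members gained calls too, among them DDB2, TNFRSF10B, TRIAP1 and XPC for estrogen in primary tumors when the compared groups were fitted alone. The cause of these changes was not tested. With 2 arrays in each primary tumor group, a difference that was not called may still exist.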

Other observations

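The following members were not called in any of the 5 comparisons as deposited. ZMAT3, a zinc finger protein gene that regulates RNA, ran from 3.10 to 4.03, and its difference was between −0.49 and 0.10 in the 4 comparisons of groups as deposited. PLK3, a stress kinase gene, ran from 5.0 to 5.77, with differences between −0.01 and 0.32. POLH, a polymerase that copies past ultraviolet lesions, ran from 3.84 to 5.24, its highest value being in the lymph node of estrogen mouse 11. TIGAR, which lowers glycolytic flux, had differences from −0.89 to 0.67, AEN, a nuclease of apoptosis, from −0.38 to 0.60, and PHLDA3, an inhibitor of AKT, from −0.33 to 1.04. CYFIP2, a regulator of actin, was 1.10 ± 0.41 higher in withdrawn lymph nodes than in withdrawn primary tumors (limma adjusted p = 0.423), and its groups overlapped. SESN2, a paralog of SESN1, differed by 0.62 for estrogen in lymph nodes and by −0.71 in primary tumors, an interaction of 1.33 ± 0.54 (limma adjusted p = 0.415).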
